A study of Mus musculus with 4 samples.

Results

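The 40 genes described here run the cell division cycle and DNA replication. They comprised 8 genes of replication origin licensing, 3 of DNA synthesis, 3 D cyclins, 5 cyclins of types E, A and B, 4 cyclin-dependent kinases (Cdk), 3 kinase inhibitors, 9 genes of mitosis and 5 transcription factors. All 40 were matched by symbol among 21887 protein-coding genes in a RefSeq gene table of the mouse assembly GRCm38.p6, which has the coordinates of mm10. A stretch of open chromatin was given to a gene when it lay in the gene or within 50 kb of it. It was called a gene-end region when it lay within 1 kb of either annotated end of the gene, and a distal region otherwise. By this rule 555 of 119852 open regions were given to the 40 genes, 53 of them at a gene end and 502 distal. A distal region within reach of several of the genes was counted for each, which gave 512 distal assignments.

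The assay was ATAC-seq, which maps open chromatin by letting the Tn5 transposase cut and tag accessible DNA. The study compared stem cells of the small and the large intestine, and its title names their transcriptional regulatory networks. Both groups were sorted from crypts of untreated Lgr5-EGFP-IRES-creERT2 mice aged 6 to 12 weeks, in which EGFP and a tamoxifen-dependent Cre are expressed from the locus of the stem cell gene Lgr5, so only cells with an active reporter were collected. Small-intestinal stem cells (SISC, 2 libraries) were positive for Lgr5-EGFP and negative for CD24, a surface protein of Paneth and other cells. Large-intestinal stem cells (LISC, 2 libraries) were positive for Lgr5-EGFP, with no CD24 gate named. Each library was made from 50000 cells and amplified for 10 PCR cycles, and the labels do not say which animals, or how many, went into a library.

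In cycling cells, D cyclins with Cdk4 or Cdk6 and then E cyclins with Cdk2 inactivate the retinoblastoma family, which frees E2F factors to switch on the genes of DNA replication. Before replication, Cdc6 and Cdt1 load the hexamer of Mcm proteins onto origins, and later the A and B cyclins with Cdk1 bring the cell into mitosis, whose genes are switched on by FoxM1 and by B-Myb with the MuvB complex. Lgr5-positive crypt cells of both intestines divide often, and this machinery is in general use in dividing cells of every tissue.

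The authors deposited 1 MACS2 peak list per library, with 83367 and 93141 peaks in SISC replicates 1 and 2 and 91238 and 88634 in LISC replicates 1 and 2. Overlapping peaks, by 1 bp or more and from any list, were joined into the regions counted here. The median fold enrichment over background was lowest in LISC replicate 2, at 4.38, against 4.92 to 5.76 in the other libraries, and SISC replicate 2 covered the most sequence, 63.3 Mb against 49.8 to 58.3 Mb. Replicate 1 of SISC and LISC had 6 and 8 peaks on the Y chromosome and replicate 2 of each had 0, a difference between replicates that both groups share. Of 10 markers of crypt epithelium, 9 had a gene-end region in all 4 libraries, and the exception, Olfm4, had one in the SISC libraries only. Among 7 immune markers, 3, 3, 2 and 1 had a gene-end region in SISC replicates 1 and 2 and LISC replicates 1 and 2, and among 9 stromal markers 7, 7, 7 and 3 had one. Of 3 Paneth cell markers, 2, 2, 1 and 2 had one. SISC-only and LISC-only distal regions are defined below. At the Paneth markers they numbered 8 and 0 of 18, and at the crypt markers 31 and 12 of 233. At the immune markers there were 7 and 5 of 98, and at the stromal markers 10 and 8 of 107. Over all protein-coding genes the shares were 7.45% and 7.62%. Olfm4 alone had 10 of the 31 SISC-only regions at the crypt markers. The part of other cell types in the values below was not tested. No read counts entered these comparisons and the sequencing depth is unknown, so the absence of a region from a list means only that no peak was called there.

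The start sites of these genes were searched for short motifs, in fixed windows that were not limited to the open regions described below. RefSeq promoter windows of GRCm38.p6, 250 bases before to 50 bases after a transcription start, were found for 33 of the 40 genes, in 39 windows. Aurkb, Ccne2, Foxm1, Ccnd2, Ccnd1, Ccna2 and Mcm4 had no window. The 8 sequences below are the parts of these windows upstream of the annotated gene, shown because they carry the contrast between replication and mitosis genes. Capitals mark the E2F core (TTCCCGC or TTGGCGC), the cell cycle genes homology region or CHR (TTTGAA or TTCGAA) and the CCAAT box (CCAAT), on either strand. GC boxes (GGGCGG) were searched as well and are left in lower case. Each runs 5′ to 3′ on the gene's own strand.
Mcm5: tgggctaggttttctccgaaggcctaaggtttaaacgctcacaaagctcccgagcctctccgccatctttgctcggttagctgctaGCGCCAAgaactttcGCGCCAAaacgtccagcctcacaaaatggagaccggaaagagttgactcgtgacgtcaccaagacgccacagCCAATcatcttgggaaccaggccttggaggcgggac
Mcm6: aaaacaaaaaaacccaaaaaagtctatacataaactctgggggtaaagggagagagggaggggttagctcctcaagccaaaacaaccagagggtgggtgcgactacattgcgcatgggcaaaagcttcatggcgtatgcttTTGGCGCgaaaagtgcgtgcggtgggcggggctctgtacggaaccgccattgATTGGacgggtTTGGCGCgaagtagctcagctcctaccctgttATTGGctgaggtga
Rrm1: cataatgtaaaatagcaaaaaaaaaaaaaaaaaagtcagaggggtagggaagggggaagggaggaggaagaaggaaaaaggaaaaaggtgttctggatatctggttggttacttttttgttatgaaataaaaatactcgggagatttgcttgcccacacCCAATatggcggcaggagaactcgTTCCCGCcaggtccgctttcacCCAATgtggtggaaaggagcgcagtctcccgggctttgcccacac
Rrm2: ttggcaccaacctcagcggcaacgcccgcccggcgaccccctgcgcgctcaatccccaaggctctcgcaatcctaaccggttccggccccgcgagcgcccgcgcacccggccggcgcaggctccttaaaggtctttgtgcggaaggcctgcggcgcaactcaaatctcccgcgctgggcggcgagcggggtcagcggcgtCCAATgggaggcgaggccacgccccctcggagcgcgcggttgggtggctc
Cdk1: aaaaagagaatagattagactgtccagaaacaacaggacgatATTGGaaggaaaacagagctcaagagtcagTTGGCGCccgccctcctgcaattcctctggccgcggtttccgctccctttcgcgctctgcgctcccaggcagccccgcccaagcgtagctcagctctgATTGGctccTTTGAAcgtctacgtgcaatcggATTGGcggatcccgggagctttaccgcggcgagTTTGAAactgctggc
Ccnb2: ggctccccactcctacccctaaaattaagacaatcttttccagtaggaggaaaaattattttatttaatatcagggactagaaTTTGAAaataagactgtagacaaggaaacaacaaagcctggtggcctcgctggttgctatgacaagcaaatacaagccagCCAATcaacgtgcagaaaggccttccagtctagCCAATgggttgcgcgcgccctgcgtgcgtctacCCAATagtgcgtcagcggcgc
Cdc20: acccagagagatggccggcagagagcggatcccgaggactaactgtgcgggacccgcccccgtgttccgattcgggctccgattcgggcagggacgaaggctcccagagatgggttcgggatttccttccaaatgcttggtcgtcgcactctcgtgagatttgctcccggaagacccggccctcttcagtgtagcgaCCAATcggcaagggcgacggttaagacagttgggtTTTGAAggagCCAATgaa
Top2a: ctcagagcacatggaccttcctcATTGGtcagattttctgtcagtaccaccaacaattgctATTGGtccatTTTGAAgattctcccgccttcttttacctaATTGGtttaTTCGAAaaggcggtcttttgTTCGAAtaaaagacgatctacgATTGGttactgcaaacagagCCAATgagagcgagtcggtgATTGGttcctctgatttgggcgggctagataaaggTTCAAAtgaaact

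These stretches lie at chr8:75109259-75109467, plus strand (Mcm5), chr1:128359706-128359955, minus strand (Mcm6), chr7:102441445-102441694, plus strand (Rrm1), chr12:24708004-24708253, plus strand (Rrm2), chr10:69352913-69353162, minus strand (Cdk1), chr9:70421555-70421804, minus strand (Ccnb2), chr4:118437344-118437593, minus strand (Cdc20) and chr11:99024200-99024439, minus strand (Top2a). Mcm5 and Mcm6, which encode subunits of the replicative helicase, each held 2 E2F cores and no CHR in their windows. Rrm1, the large subunit of ribonucleotide reductase, held 1 E2F core, and its partner Rrm2 held none. Cdk1, the kinase of mitotic entry, held 1 E2F core, 2 CHR and 3 CCAAT boxes, and Ccnb2, a B cyclin, held 2 CHR and 3 CCAAT boxes. Cdc20, an activator of the anaphase-promoting complex, held 1 CHR and 2 CCAAT boxes. Top2a, the topoisomerase that untangles chromosomes, held 4 CHR and 6 CCAAT boxes.

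Motif content divided by role. Of 8 windows of the licensing genes, 7 held an E2F core, with Mcm2 the exception, and 2 held a CHR. Of 8 windows of the mitosis genes the counts were the other way round, with a CHR in 7, all but that of Birc5, and an E2F core in 1, that of the proliferation marker Mki67. In the 250 bases before the start alone, a CHR was found in 4 of the 8 mitosis windows and an E2F core in 5 of the 8 licensing windows, so the contrast was smaller there. Over all 39 windows an E2F core was found in 38.5%, against 8.69% of 21263 windows of protein-coding genes and 12.2% of the 12995 such windows whose start had an open region in all 4 libraries within 1 kb. A CHR was found in 33.3%, against 17.6% and 12.7%. The CCAAT box was found in 66.7%, against 38.2% and 37.5%, and the GC box in 76.9%, against 46.2% and 65.4%. The 40 genes were chosen by function, so these shares describe that choice, and a match is only a run of letters.

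Aurka, Ccnb1, Ccnb2 and Cdk1 also had CCAAT boxes that began 32 or 33 bases apart, a spacing chosen after its values were seen. Such a pair stood in 4 of 39 windows, or 10.3%, against 0.757% of protein-coding windows and 1.06% of those with an open start. A ratio of observed to expected CpG of at least 0.6, a usual mark of CpG islands, was found in 84.6% of the 39 windows, against 47.7% and 71.4%.

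**Figure D1:**
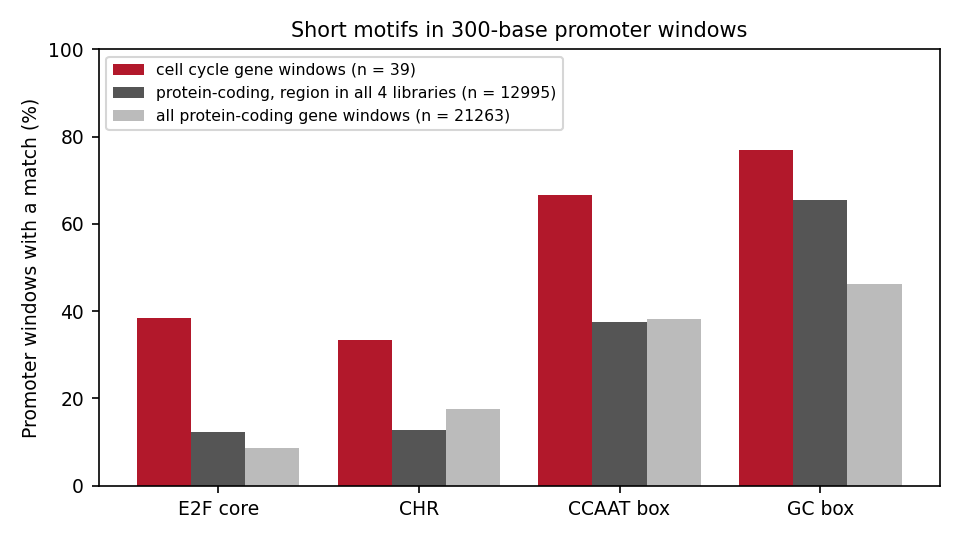
Share of promoter windows, in percent, that hold each short motif on either strand, for the 39 windows of cell cycle genes, for 12995 protein-coding windows with an open region in all 4 libraries at the start, and for 21263 protein-coding windows. The E2F core stands at 38.5% in cell cycle genes against 12.2% and 8.69%, and the GC box differs least from the windows with an open start, at 76.9% against 65.4%.

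At least 1 annotated end, mostly the start, was open in both kinds of stem cell at nearly all 40 genes. A gene-end region was called in all 4 libraries at 38 of 40 genes, or 95% (exact Clopper-Pearson 95% interval 83.1 to 99.4%), where the same was true of 61.9% of all protein-coding genes. Of the 53 gene-end regions, 43 were called in all 4 libraries, or 81.1%, against 77.9% of the gene-end regions of all genes. Where the strand was known, a region in all 4 libraries stood at the start of 31 genes and at the other end of 3, Pcna, E2f1 and E2f2. Such intervals treat genes as independent draws and say nothing of the spread between libraries. Taken by the starts in the promoter table, 32 of 33 genes had a region in all 4 libraries within 1 kb of a start, against 62.0% of genes. The 2 exceptions among the 40 were Rrm2 and Cdkn1a.

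Rrm2, the small subunit of ribonucleotide reductase and a limiting enzyme of nucleotide supply, had no gene-end region in any list. Its body, chr12:24708254-24714146, lay in a stretch of 46.9 kb without a called region, from base 24687450 to base 24734389. The nearest region above it, 20.2 kb past the gene, was strong in every library, with −log10 q of 224, 203, 288 and 212 in SISC replicates 1 and 2 and LISC replicates 1 and 2, the order used for all values below. These −log10 q values, like the fold enrichments, are the authors' own per peak, grow with the depth of their library, and serve here only to describe or rank peaks within a list. Its partner Rrm1 had a region at its start in all 4 libraries, with −log10 q of 413, 359, 389 and 255. The promoter window of Rrm2 held 2 GC boxes and 1 CCAAT box and had an observed to expected CpG ratio of 1.05. Why no peak was listed there was not tested.

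Cdkn1a, the p21 inhibitor of cyclin-dependent kinases, had no region at its outermost annotated start. At its other end, chr17:29100473-29100943, a peak was called in 3 libraries, with −log10 q of 36.1, 5.73 and 5.58, and none in LISC replicate 2. A second start in the promoter table, 2790 bp inside the gene, lay in a region called in all 4 libraries, chr17:29093483-29095885. The strongest peaks of that region had −log10 q of 240, 230, 250 and 85.0. Their summits lay at -58 and -57 bp from this start in replicate 1 of SISC and LISC. In replicate 2 of each group the summit lay 1808 bp past it. By this region Cdkn1a was counted among the genes with an open start. Rrm2 was then the single gene of the 33 without one.

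Within each list the gene-end peaks of these genes ranked high. A percentile here is a peak's rank by −log10 q as a percent of the number of peaks in its list, with ties averaged, taken for the strongest gene-end peak of a gene. The median over the genes was 94.9, 96.1, 95.8 and 95.1 in the 4 libraries, against 90.1, 90.5, 90.6 and 89.97 over all protein-coding genes with a gene-end peak. In the 4 lists, 74.4, 74.4, 76.9 and 73.7% of these genes with a gene-end peak reached the 90th percentile. Over all protein-coding genes with such a peak the shares were 50.2, 51.7, 51.9 and 49.9%. Of the 38 genes with a region in all 4 libraries, 25 were at or above the 90th percentile in every list and 5 fell below the 80th in at least 1. LISC replicate 2 gave the lowest −log10 q of the 4 in 36 of these 38 genes, whereas its median percentile of 95.1 was not the lowest. The list of that library also had the lowest median fold over all its peaks, and the part of this in the values was not tested.

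The highest ranks belonged to cyclins E1 and A2 and to the sliding clamp of the replication fork. Ccne1, the cyclin that starts S phase with Cdk2, had −log10 q of 708, 496, 746 and 357 and did not fall below the 99.6th percentile. Ccna2, the cyclin of S phase and G2, had 632, 505, 706 and 421, with 99.4 as its lowest percentile. Pcna, the clamp that holds the polymerases on DNA, had 632, 433, 628 and 361, with 99.1 as its lowest percentile. In all 3 genes LISC replicate 2 had the lowest −log10 q, and the values of the 2 groups overlapped.

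Among the 38 genes with a gene-end region in all 4 libraries, Ccnd3, Cdk6 and E2f2 ranked lowest. Ccnd3, a D cyclin, had −log10 q of 25.1, 54.3, 31.9 and 28.3 at its outermost start and percentiles of 40.5, 63.0, 46.9 and 52.3. Cdk6, a kinase partner of the D cyclins, had 42.1, 56.4, 37.0 and 42.3, with percentiles of 53.9, 63.9, 50.9 and 63.6. E2f2, an activating E2F factor, had 88.1, 86.6, 85.3 and 39.0, with percentiles of 72.0, 74.3, 71.4 and 61.4. The groups overlapped at Ccnd3 and Cdk6, and at E2f2 both SISC percentiles stood above both LISC percentiles, at 72.0 against 71.4 for the nearest. Other genes of the 38 separated too, with SISC higher at Bub1b and LISC higher at Cdt1, for example. Such separations were not counted over all genes, and with 2 libraries against 2 they are no test of a difference. The other 2 genes whose lowest percentile was under 80 were also D cyclins, Ccnd2 at 69.0 and Ccnd1 at 69.5, so all 3 D cyclins stood among the 5 lowest.

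Ccnd3 had a second start in the promoter table, 88416 bp inside the gene, where the open region was far stronger, with −log10 q of 408, 337, 372 and 117 and percentiles of 96.0, 96.9, 95.4 and 87.0. Its low rank therefore belonged to the outermost start alone. Of the 9 mitosis genes Aurkb, the kinase of the chromosomal passenger complex, was lowest with percentiles of 87.2, 85.2, 87.3 and 82.2, and Top2a highest with 98.1, 98.0, 96.9 and 96.8.

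**Figure D2:**
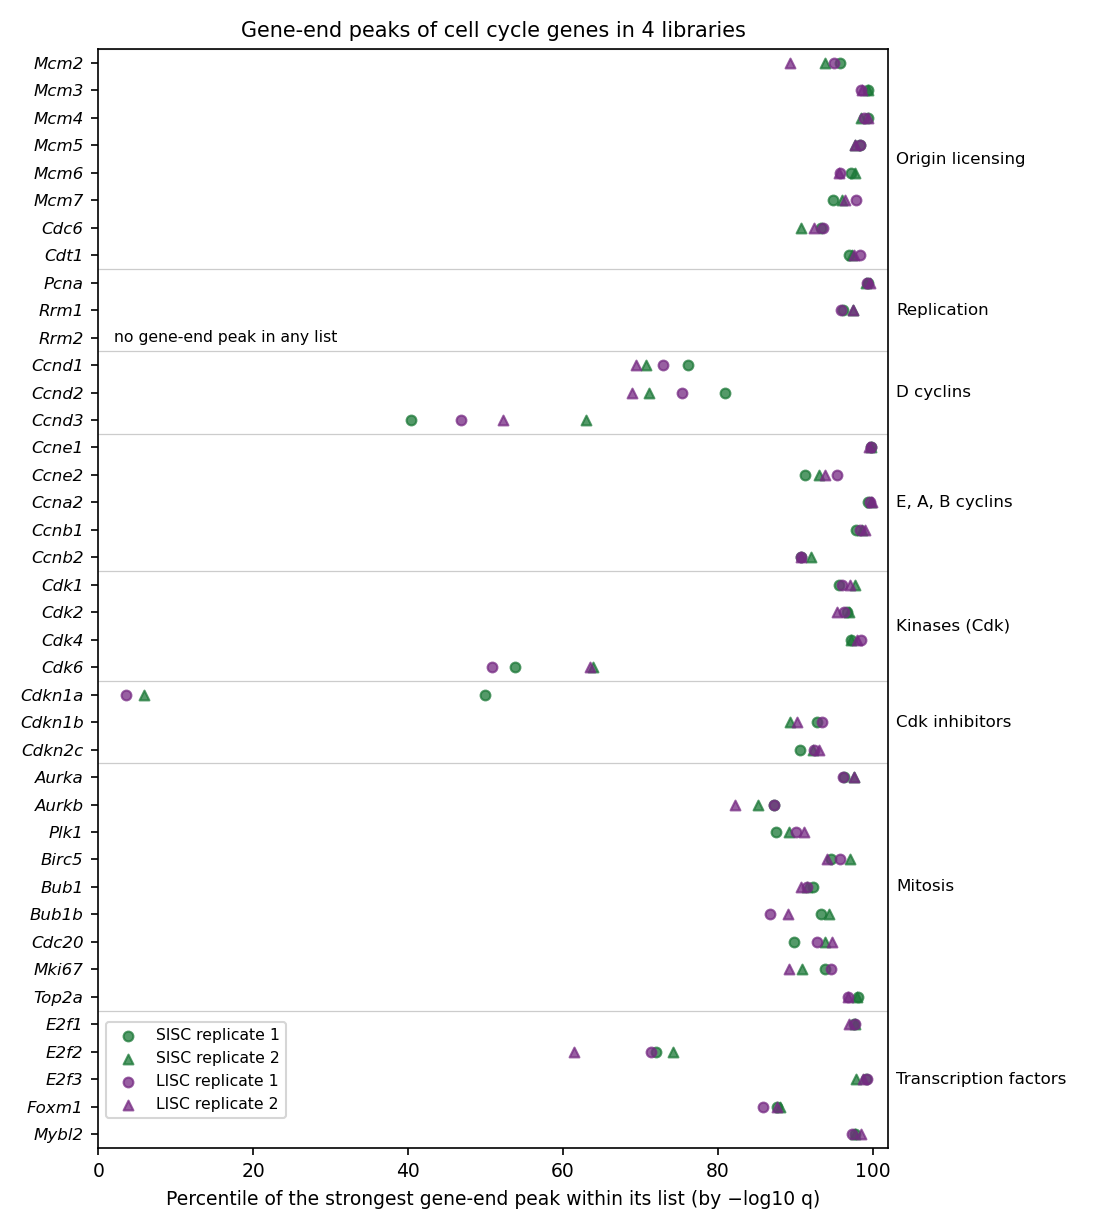
Percentile of the strongest gene-end peak of each gene within its own list, by −log10 q, with 1 point per library (SISC green, LISC purple, replicate 1 circles, replicate 2 triangles) and genes grouped by role. Most points lie above the 90th percentile, and the D cyclins, Cdk6 and E2f2 lie between 40.5 and 80.9. Cdkn1a has points at 50.0, 5.88 and 3.64 and none in LISC replicate 2, and Rrm2 has no point.

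A region is termed SISC-only when both SISC lists and no LISC list hold it, and LISC-only in the opposite case. Only 4 of the 53 gene-end regions were of either kind. SISC-only regions stood at 2 of 40 genes, or 5.0%, against 3.21% of all genes, and LISC-only regions at 2 genes, against 2.14%. The SISC-only ones were weak peaks: at Ccnd1 at chr7:144928780-144929112, 819 bp below its lower end, with −log10 q of 8.51 and 4.23, and at the other end of Mcm2 at chr6:88884135-88884470, with 6.80 and 10.8. Among LISC-only ones, that at the other end of Mcm5, chr8:75127416-75127790, had −log10 q of 34.6 and 29.4. The last lay at the other end of Ccnd3, chr17:47600083-47600460, within 1 kb of an end of Bysl as well, with 22.8 and 7.99. No start in the promoter table had a region of only 1 group. With sorted cells in bulk, a region open in more of the cells and a region more open in each cell cannot be told apart.

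Around the genes, distal regions were shared by the libraries more often than around genes in general, and regions of only 1 group were about as frequent. Of the 512 distal assignments, 314 were called in all 4 libraries, or 61.3% (exact 95% interval 57.0 to 65.6%). The share was 52.6% for all genes and 53.2% for genes with a gene-end region in all 4 libraries. The interval treats the assignments as independent draws. They cluster around 40 genes and come from 502 distinct regions, so it is likely too narrow. SISC-only regions numbered 34, or 6.64%, against 7.45%, and LISC-only regions 29, or 5.66%, against 7.62%. The other 135, or 26.4%, were called in 1 to 3 libraries without being of 1 group, against 32.4%. These genes lie near other genes, and 108 of the 512 regions were at another gene's end, or 21.1% against 19.2%. With those left out, 226 of 404 were called in all 4 libraries, or 55.9% against 46.6%, 33 were SISC-only, or 8.17% against 8.36%, and 26 were LISC-only, or 6.44% against 8.89%. Counts of only 1 group depend on both of its libraries: without SISC replicate 1 or SISC replicate 2 the SISC-only regions numbered 68 and 54, and without LISC replicate 2 the LISC-only regions numbered 57. With each region given to its nearest gene alone, 48.7% of the 150 regions left to the 40 genes were called in all 4 libraries, against 44.0% for all genes.

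The count of distal regions called per library did not separate the groups. Of the 502 distinct distal regions, 386 and 415 were called in SISC replicates 1 and 2 and 404 and 376 in LISC replicates 1 and 2. The means were 400.5 ± 20.5 and 390.0 ± 19.8 (SD, n = 2 each), a difference within the spread of the replicates (two-sided exact permutation test, p = 0.667, where the smallest p that 2 against 2 allows is 0.333). Labels do not say that the replicates were separate animals, so this spread may be partly technical.

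The genes differed widely in how many distal regions surrounded them, from 2 at Mcm4 to 30 at Cdk6, while 13.9% of all genes had no region at all within 50 kb. The number had a median of 11.5 against 10 for all genes and 13 for genes with a gene-end region in all 4 libraries. At least 1 SISC-only region lay near 22 of the 40 genes, or 55.0%, against 45.3% of all genes and 56.5% of genes with a gene-end region in all 4 libraries. At least 1 LISC-only region lay near 19, or 47.5%, against 42.5% and 53.0%. Regions of either kind lay near 30 genes, or 75.0% against 64.3%, and 11 genes had both kinds. More SISC-only than LISC-only regions were found near 13 genes, against 28.5% of all genes, more LISC-only near 12, against 26.7%, and 15 genes were level. With all peaks used, the 10 genes with no distal region of only 1 group were Mcm4, Mcm7, Pcna, Rrm1, Ccnd1, Ccnd2, Ccna2, Plk1, E2f1 and Foxm1. With the 41683 strongest peaks of each list, Pcna, Rrm1, Ccnd1, Ccnd2, Ccna2 and Plk1 had at least 1 such region each.

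**Figure D3:**
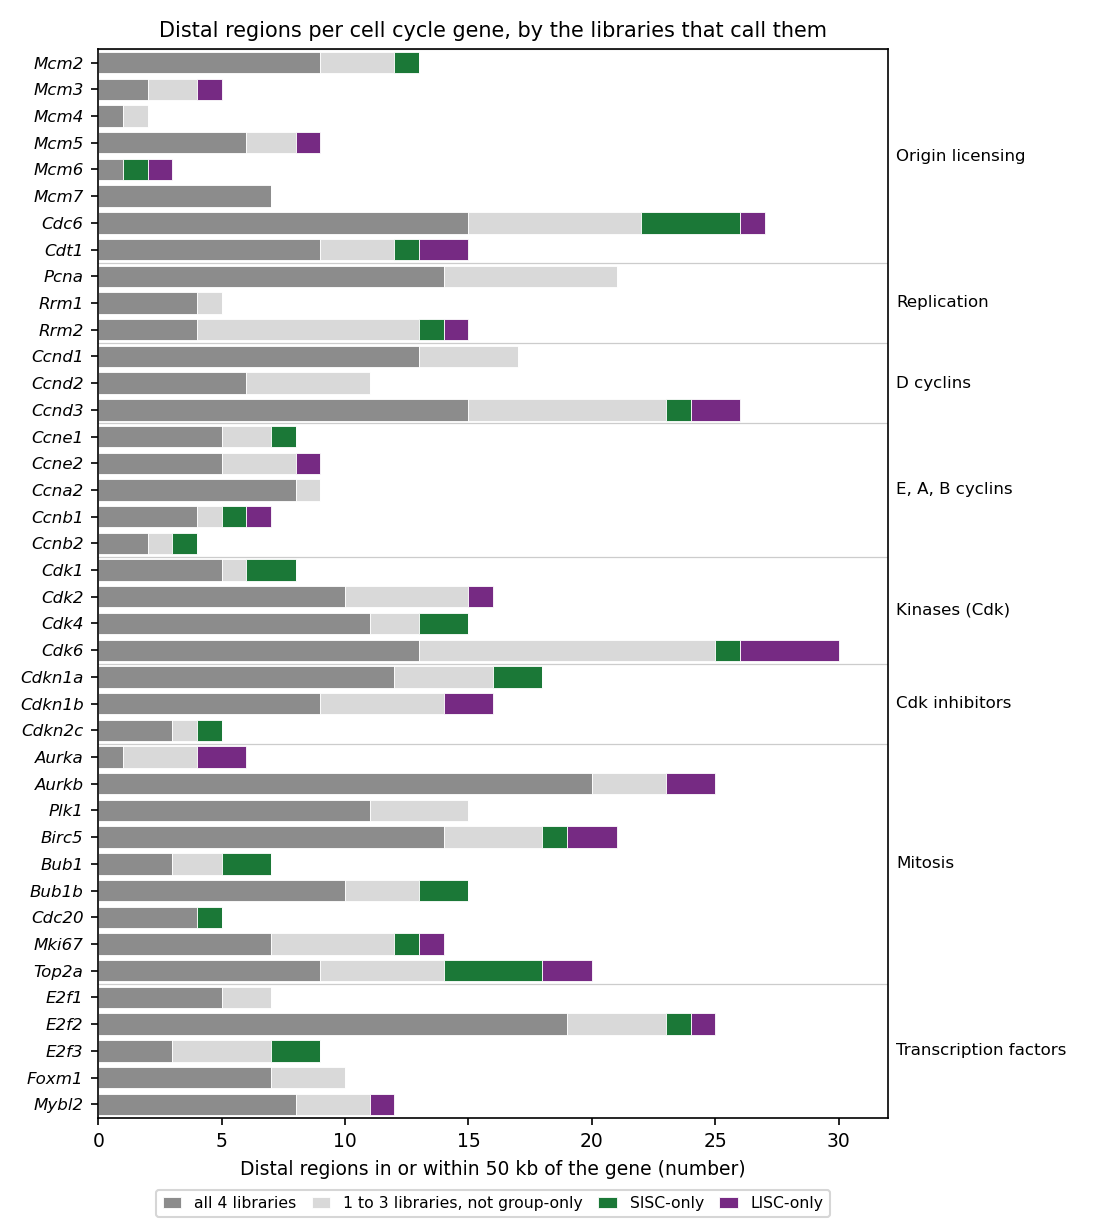
Number of distal regions in or within 50 kb of each gene, stacked by the libraries that called them, with genes grouped by role. Grey and light grey fill most of every bar except that of Mcm6, which has 1 shared, 1 SISC-only and 1 LISC-only region. The count of 4 regions of only 1 group on 1 side is reached at Cdc6 and Top2a (SISC-only) and Cdk6 (LISC-only).

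Regions of only 1 group were weak within their lists. The lower of their 2 percentiles had a median of 16.7 for SISC-only and 19.0 for LISC-only regions, where the lowest of the 4 percentiles of regions called in all libraries had a median of 57.9. Over all genes the corresponding medians were 20.7, 23.9 and 57.0. Among 32 distinct SISC-only regions 3 had both percentiles at 50 or above, and among 28 distinct LISC-only regions 2 did. For 11 of the 34 SISC-only and 10 of the 29 LISC-only regions the cell cycle gene was also the nearest gene. The others lay in or nearer to another gene. Nearness was taken to the gene body, and to the gene's end where bodies tied.

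Among the licensing genes, Cdc6, the loader of the Mcm helicase, was surrounded by 4 SISC-only regions and by 1 that was LISC-only. The first, chr11:98918362-98918685 inside Cdc6, reached −log10 q of 8.62 and 8.98 in SISC replicates 1 and 2. The next, chr11:98925149-98925691, began 1.21 kb past the gene and had 23.3 and 15.1. The remaining pair lay in the neighbouring gene Rara, which encodes a retinoic acid receptor. That at chr11:98947955-98948608, 24.0 kb past Cdc6, was among the strongest of its kind, with −log10 q of 38.3 and 67.8 and percentiles of 51.5 and 68.4. That at chr11:98955689-98955990 had 12.2 and 9.35. The single LISC-only region of Cdc6, chr11:98961344-98961589, lay in Rara as well and was weak, with 8.66 and 6.66.

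Cdt1, which loads the helicase together with Cdc6, was near 2 LISC-only regions and 1 of the other kind. The LISC-only regions were chr8:122550215-122550535, at an end of Piezo1, with −log10 q of 18.9 and 5.59, and chr8:122607562-122607924 in Galns, with 41.1 and 9.19. Both ranked higher in the list of LISC replicate 1, at percentiles of 33.1 and 53.6, than in that of LISC replicate 2, at 6.21 and 19.0. Of the other licensing genes, Mcm3 and Mcm5 had 1 LISC-only region each, Mcm2 had 1 SISC-only region and Mcm6 had 1 of each. The Mcm3 region, chr1:20867828-20868426, 47.5 kb upstream, had −log10 q of 71.7 and 26.8 and both percentiles above 50. With the strongest peaks alone, Mcm3 and Mcm5 turned to 1 SISC-only and no LISC-only region each. Mcm6 then had none of either kind, and Cdt1 had 1 of each.

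Among the genes of DNA synthesis, with all peaks used, Rrm2 had 1 region of each kind, and Pcna and Rrm1 had none. All 21 distal regions of Pcna lay outside the gene. The strongest, chr2:132262741-132264407, stood 9.56 kb upstream in Cds2, with −log10 q of 665, 442, 641 and 361, close to the values at the Pcna start itself.

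Among the D cyclins, with all peaks used, Ccnd1 and Ccnd2 had no distal region of only 1 group in 17 and 11. Among the 26 of Ccnd3, 2 were LISC-only and 1 was SISC-only, a direction that turned to 3 SISC-only and no LISC-only with the strongest peaks alone. The SISC-only region, chr17:47458338-47458703, 46.3 kb upstream in AI661453, had the highest lower percentile of all 32, 63.4, with −log10 q of 61.4 and 75.8. The LISC-only regions were chr17:47470528-47470989, at an end of AI661453, with 6.80 and 6.93, and chr17:47526907-47527320 inside Ccnd3, with 12.2 and 14.5. A region inside Ccnd3 called in all 4 libraries, chr17:47510966-47511991, was far stronger, with −log10 q of 639, 445, 652 and 274. Among cyclins E, A and B, with all peaks used, no gene had more than 1 region of either kind. By the strongest peaks alone, Ccna2 had 2 LISC-only regions. Ccne1 had a strong shared region 11.7 kb from its downstream end, with 749, 459, 770 and 410, close to the values at its start.

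Cdk6 had the most LISC-only regions of the 40 genes, 4, beside 1 SISC-only region, 13 regions called in all 4 libraries and 12 others. It is also the longest of the 40 genes, at 190005 bp, with 24 of its 30 distal regions inside its body. The LISC-only region upstream, chr5:3299890-3300627, lay 40.4 kb before the start with Cdk6 as the nearest gene and had −log10 q of 31.1 and 25.1. Inside the gene, chr5:3509017-3509879 had 60.2 and 18.0 and chr5:3363393-3364022 had 22.6 and 6.65. The weakest, chr5:3386548-3387068, had 4.69 and 3.65, both under the 2nd percentile of their lists. The SISC-only region, chr5:3465800-3466876 inside the gene, had 28.5 and 15.99. Cdk6 thus had intragenic regions of both groups and a start that was called in all 4 libraries at similar ranks.

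**Figure D4:**
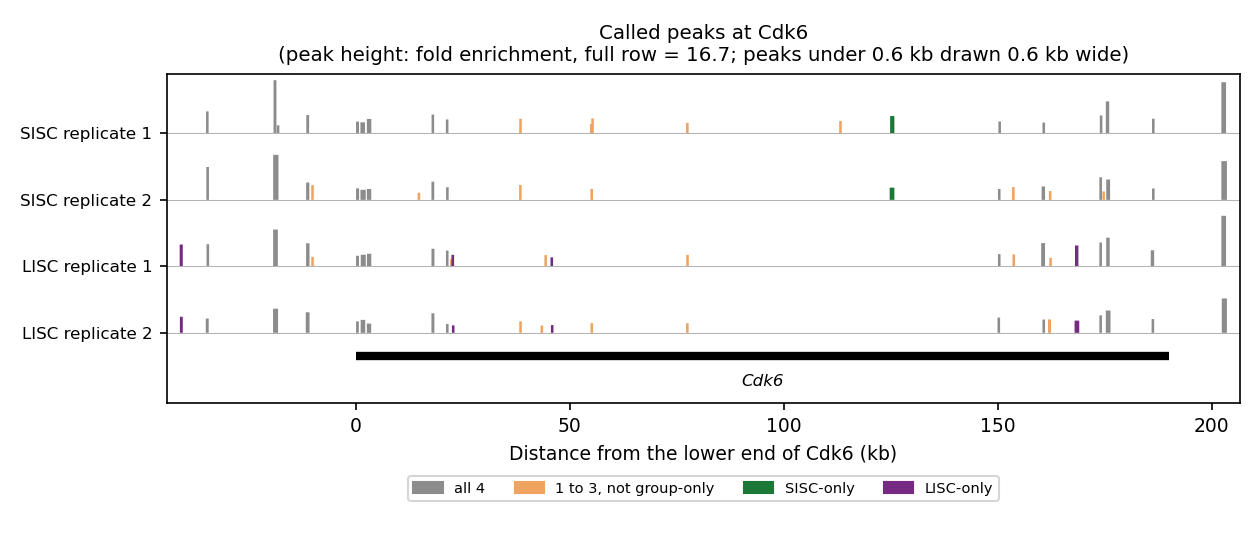
Called peaks along Cdk6 and 50 kb to either side, in kb from its lower end, with 1 row per library, bar height giving fold enrichment and colour the libraries that called the region. The 4 LISC-only regions (purple) and the SISC-only region (green) stand among grey regions called in all 4 libraries, and the start at 0 kb is called in every row.

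Of the other kinases, Cdk1 was near 2 SISC-only regions and none of the other kind. The stronger, chr10:69327422-69328560, lay 6.59 kb past the gene with Cdk1 as the nearest gene and had −log10 q of 42.7 and 38.4, percentiles of 54.3 and 53.9. The other, chr10:69341528-69341920 inside Cdk1, was weak, with 6.77 and 5.64. Cdk4, the partner of the D cyclins, also had 2, chr10:127016561-127016828 in Avil with 8.62 and 16.8 and chr10:127111450-127111817 in Os9 with 22.6 and 13.0, both over 44 kb from Cdk4. Cdk2 had 1 LISC-only region. By the strongest peaks alone, Cdk1 had none of either kind and Cdk4 had 1 SISC-only region.

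Near the inhibitors, regions of only 1 group were weak. Cdkn1a had 2 SISC-only regions, chr17:29074173-29074413, 16.6 kb upstream, with −log10 q of 8.62 and 8.88, and chr17:29129330-29129675 in Rab44, with 5.31 and 5.34. Cdkn1b, which encodes p27, had 2 LISC-only regions, both upstream and nearer to Gpr19: chr6:134901346-134901840 with 14.4 and 14.5, and chr6:134903838-134904305 with 24.8 and 21.1. Cdkn2c, which encodes the Cdk4 and Cdk6 inhibitor p18, had 1 SISC-only region. None of these regions reached the 50th percentile in either library. With the 41683 strongest peaks of each list, Cdkn1a had 1 SISC-only and 2 LISC-only regions, so its direction turned, and Cdkn1b had none.

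Among the mitosis genes, Top2a had 4 SISC-only and 2 LISC-only regions. Its 2 SISC-only regions in Rara and 1 of its LISC-only regions were those already given for Cdc6, because the 2 genes lie on either side of Rara and within 50 kb of it. Its own SISC-only regions were chr11:99029451-99029766, 5.25 kb upstream, with −log10 q of 18.6 and 14.4, and chr11:99063119-99064022, nearer to Tns4, with 17.9 and 17.3. The LISC-only region inside Top2a, chr11:99022573-99022821, had 9.19 and 5.57.

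**Figure D5:**
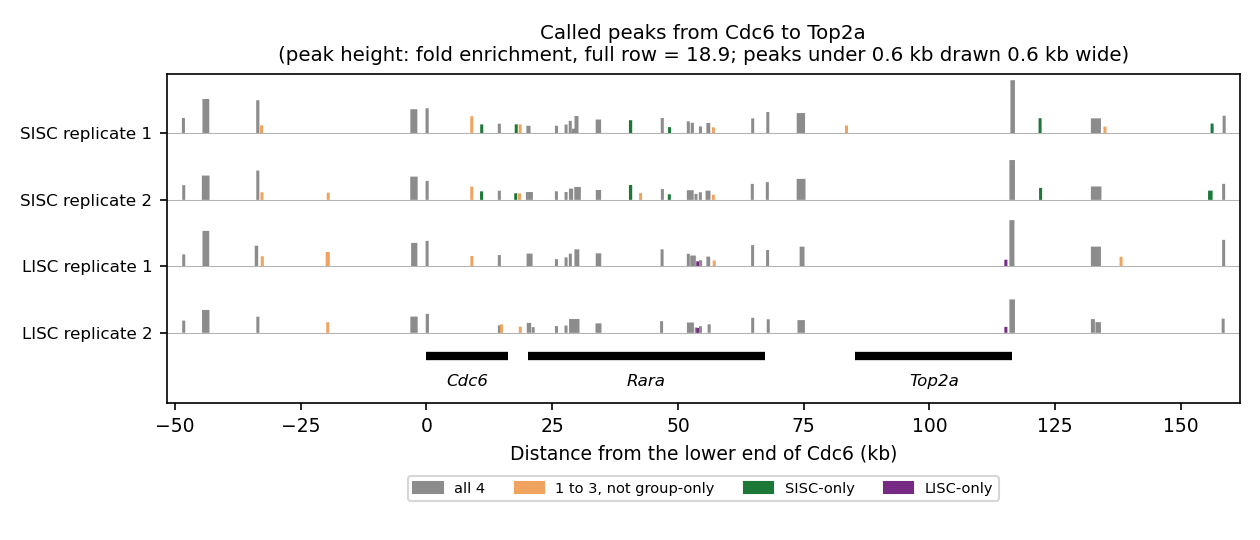
Called peaks from Cdc6 to Top2a, in kb from the lower end of Cdc6, with 1 row per library, bar height giving fold enrichment and colour the libraries that called the region. The 6 distinct SISC-only regions (green) are lower than the grey regions at the starts of Cdc6 and Top2a, and the 2 genes share those inside Rara.

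Aurkb, Aurka and Birc5 had 2 LISC-only regions each. Both regions of only 1 group at Aurkb were LISC-only, and chr11:69081714-69082374, 30.1 kb above the gene and nearer to Vamp2, had the highest lower percentile of all 28 LISC-only regions, 61.4, with −log10 q of 90.4 and 39.0. The other, chr11:69053787-69054173, lay 2.12 kb above Aurkb with 32.9 and 11.6. Aurka, the kinase of the spindle poles, had chr2:172351374-172351781 in Fam210b with 21.9 and 4.14 and chr2:172376941-172377404 in Cstf1 with 45.0 and 7.22, both far lower in rank in LISC replicate 2, at percentiles of 1.98 and 11.9. Birc5, which encodes survivin, had chr11:117829832-117830124 with 8.30 and 16.5 and chr11:117834127-117834455 with 21.8 and 32.4, both in Afmid, beside 1 SISC-only region. With the strongest peaks alone, Aurkb had 1 LISC-only region, Aurka had none of either kind, and Birc5 turned to 2 SISC-only and no LISC-only regions.

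Bub1 and Bub1b, both of the spindle checkpoint, had 2 SISC-only regions each and no LISC-only region. Those of Bub1 were chr2:127838855-127839563 with −log10 q of 4.08 and 8.38 and chr2:127862007-127862494 with 7.40 and 5.13, both in Acoxl and both under the 15th percentile of their lists. With only peaks of −log10 q of at least 10, Bub1 had none and Bub1b had 1 of each kind. Bub1b, which encodes BubR1, had chr2:118606075-118606361 inside the gene with 21.8 and 28.5 and chr2:118572792-118573660 upstream with 6.81 and 49.3. Mki67, which coats mitotic chromosomes, had 1 region of each kind, and Cdc20 had 1 SISC-only region. The shared distal region that ranked highest by its lowest percentile, 99.6, lay 18.4 kb from Mki67, at chr7:135734862-135736753, with 704, 501, 688 and 376, above the values of 334, 214, 343 and 133 at the Mki67 gene end.

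Of the transcription factors, E2f3 had 2 SISC-only regions, chr13:29866535-29867134 with −log10 q of 6.23 and 14.1 and chr13:30029920-30030247 with 18.4 and 21.6, 39.4 and 43.9 kb from the gene on opposite sides. E2f2 had 1 region of each kind, Mybl2, which encodes B-Myb, had 1 LISC-only region, and E2f1 and Foxm1 had none. By the strongest peaks alone, E2f3 had none of either kind. E2f2 and Mybl2 then had 1 SISC-only and no LISC-only region each. By role, the share of distal regions called in all 4 libraries ran from 53.7% of 41 at the DNA synthesis genes to 66.7% of 63 at the transcription factors. Every role had both kinds, from 1 SISC-only and 1 LISC-only at the DNA synthesis genes to 11 and 9 at the mitosis genes.

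A list of 76 further genes of the same pathways, among them origin recognition, polymerase, checkpoint and anaphase genes, stood at the level of all genes in its distal regions. At 72 of 76 a gene-end region was called in all 4 libraries. The exceptions were Orc1, Orc4, Rfc1 and Skp2, and each of these had a region in all 4 libraries at a start in the promoter table, which lay away from its outermost annotated end. Of their 902 distal regions, 52.8% were called in all 4 libraries, against 61.3% for the 40 genes and 52.6% for all genes. SISC-only regions numbered 68, or 7.54% against 7.45% for all genes, and LISC-only regions 57, or 6.32% against 7.62%, and 29 genes had more SISC-only and 24 more LISC-only regions. The largest differences between the 2 counts were at Fzr1, a mitotic exit activator, and Rbl1, the retinoblastoma relative p107, each with 5 SISC-only and 0 LISC-only regions. Mcm10, a replication initiation factor, had 3 and 0, and E2f6, a repressor E2F, and Lin52, a MuvB subunit, had 0 and 3.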

How the data were processed

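ATAC-seq was measured in 4 libraries, 2 of SISC and 2 of LISC, grouped by the sample titles. The build was mm10 and the tools were MACS2 2.2.7.1, Bowtie2 2.3.4.1, cutadapt 3.4, bedtools and Picard, per the submitters' processing notes. Their order and settings, any Tn5 shift and duplicate handling are likewise not given in the sources used. The authors deposited, per peak, a fold enrichment (a ratio over the library's background) and −log10 p and q, and the deposited score column is an integer score that was not used. Each list carries 1 library's name, so peaks were called per library.

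Peaks were merged at 1 bp of overlap and joined to RefSeq genes and promoter windows (GRCm38.p6) with Python 3.11.15, pandas 2.3.3, numpy 2.4.6 and scipy 1.17.1, and figures were drawn with matplotlib 3.10.9. The merging, classing and assignment steps were tested on simulated data with known answers. Counts over the 40 genes were set beside the same counts over all protein-coding genes, without a test; the exact permutation test was used once, on the distal regions called per library. Libraries were not paired by replicate number in the main comparison. Over all 119852 regions the replicate differences of the 2 groups had a correlation of 0.0119. Both replicate 1 libraries had peaks on the Y chromosome, 6 and 8, and both replicate 2 libraries had 0. Whether libraries of the same replicate number shared a batch was not tested.

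Genes named with values were those without a gene-end region in all 4 libraries, the 3 highest and 3 lowest gene-end ranks, and every gene with 2 or more regions of only 1 group; other pathway genes were named where a gene-end region was missing or the net was among the largest, except 1 that is not reported here. The genes and lists were chosen with earlier results of these data known. No genome sequence was used, so the letters of distal regions are not shown. Alternatives tried were other merging, peak strength, gene-end and distance rules and leaving out each library.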

Additional observations from a re-analysis of the deposited data

How the results depend on the processing

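The count of genes with a gene-end region in all 4 libraries (38) ranged from 36 to 39 over the alternatives run. The 61.3% of distal regions called in all 4 libraries became 52.3% when a library had to cover 50% of a region, 56.8% within 10 kb, 48.7% with only the nearest gene, and 55.9% away from every gene end, an alternative chosen after seeing the data. Leaving out each library gave 64.6 to 66.3%. The 34 SISC-only and 29 LISC-only regions became 21 and 13 with the 41683 strongest peaks of each list, 11 and 10 within 10 kb, 67 and 65 within 100 kb, and 11 and 10 with only the nearest gene. Leaving out each library gave 44 to 68 SISC-only and 36 to 57 LISC-only regions, with 68 without SISC replicate 1, 54 without SISC replicate 2 and 57 without LISC replicate 2. The 13 genes with more SISC-only and 12 with more LISC-only regions became 6 and 5 within 10 kb, and 6 and 5 with only the nearest gene. Leaving out each library gave 12 to 21 and 9 to 14 genes. The mean difference of 10.5 regions per library, SISC minus LISC, became 0.0 within 10 kb and -2.0 with only the nearest gene, and ran from -4.5 (without LISC replicate 2) to 25.0 over the libraries left out; every such alternative for this difference was chosen after seeing the data. With the replicate number as a block the differences were -18 and 39. Their mean was 10.5 (exact paired permutation test, p = 1.0, smallest possible 0.5). The replicate differences of the 2 groups had a correlation of 0.0119 over all regions and -0.0213 over those of the 40 genes. A batch shared by libraries of the same replicate number was not tested. Rules that take in fewer or more regions move the counts by construction; other causes were not tested. The share called in all 4 libraries stayed above that of all genes with 50% cover (43.3%), within 10 kb (47.7%) and with only the nearest gene (44.0%), and with the strongest peaks it was 60.1% against 57.9%.
In the 250 bases before the start, the E2F core share was 30.8% and the CHR share 25.6%. With the strongest peaks alone, Cdc6 and Top2a had 1 SISC-only region each and Cdk6 had 1 LISC-only region. Read depth is unknown, so a missing call sets no upper limit on accessibility.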
